A study of Rattus norvegicus with 20 samples.

Results

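The genes described here were the 194 Ensembl genes whose transcripts were most enriched in the left ventricle of control rats relative to their brain. They were selected on the measured counts. Counts were divided by the total of their library and multiplied by 1000000 (CPM), 8160 of the 24160 features were Ensembl genes at a mean of 10 CPM or more in the control left ventricle, and these were ranked by the log2 ratio of mean left ventricle to mean brain CPM, with 0.5 added to each. The first 200 were taken, and 6 of them, whose identifiers stood on a list of 9 set aside by the rule, were dropped, which left 194. Each gene is called here by its place in that ranking, from 1 to 200.

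The libraries came from 10 male Sprague-Dawley rats of 250 to 300 g, a common laboratory stock. The 5 rats of the stress cardiomyopathy (SCM) group were immobilized for 6 hours in a schedule lasting 7 days, and the 5 control rats were the normal group. Left ventricle and brain were sequenced from every rat, which gave 20 libraries in 4 groups of 5, and the contrast addressed here is what immobilization did to heart-enriched transcripts in each tissue. The labels give neither the age of the rats nor a brain region, and p-values measure the spread between these rats.

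Heart muscle is built around contractile filaments that are driven by cycles of calcium release and reuptake, and it burns mainly fatty acids in its many mitochondria. Genes that are abundant in ventricle and scarce in brain commonly serve these tasks, while other cell types of the ventricular wall, such as endothelium and fibroblasts, can add genes of their own. The files give Ensembl identifiers without symbols, so no function was assigned to any of the 194 genes, and the tissue labels could not be compared with known marker genes. The libraries held 22386526 to 36251990 counts, and 3 counts corresponded to at most 0.118 CPM in the left ventricle and 0.134 CPM in the brain.

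The 194 genes covered a wide range of levels. In the control left ventricle they ran from 11.5 to 8778 CPM with a median of 151 CPM, and in the control brain from 0 to 143 CPM with a median of 0.935 CPM. There were 30 genes over 1000 CPM and 83 under 100 CPM in the control left ventricle. In the control brain, 99 genes averaged under 1 CPM and 23 over 10 CPM, so the list joined genes that were scarcely counted in brain to genes that were clearly present there. For 16 genes the 5 control brain libraries together held 3 counts or fewer, and 3 genes had no count in any of the 10 brain libraries.

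The log2 ratio that chose them ran from 4.33 to 12.49 with a median of 6.03, which is a median ratio of 65.3 and a range of 20.1 to 5746, whereas the median over all ranked genes was -0.37. The limit cut a continuous series. The last 3 genes inside had log2 ratios of 4.37, 4.34 and 4.33, and the next 3 outside had 4.33, 4.32 and 4.31. These values describe the choice and carry no test. Unnamed assembled transcripts were not eligible, and 3 of the 32 at 10 CPM or more in the control left ventricle had ratios past that of place 200.

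**Figure D1:**
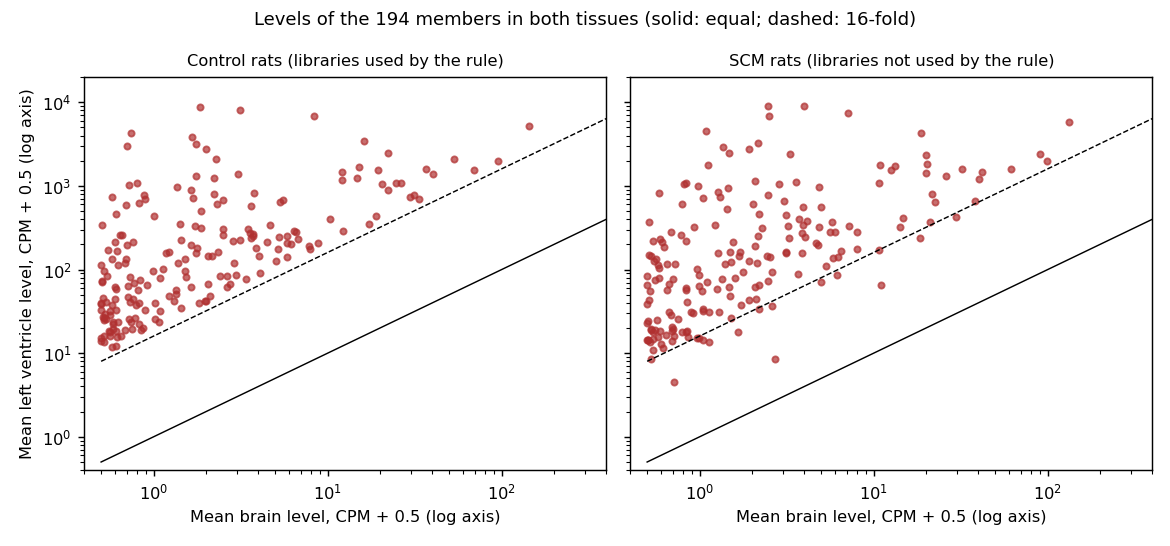
Mean left ventricle level against mean brain level of the 194 genes in CPM plus 0.5, both on log axes, in control rats (left) and SCM rats (right); the solid line is equal level and the dashed line a 16-fold ratio. The points of the control rats all lie over the dashed line, the lowest ratio in the list being 20.1, and in the SCM rats every point still lies over the solid line, with some under the dashed one.

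The SCM libraries had no part in the choice, and in them the tissue difference was present for every gene. All 194 genes were higher in left ventricle than in brain within each of the 5 SCM rats, and the median log2 ratio within a rat lay between 5.88 and 5.99. The edgeR contrast of the tissues with the rat as a block called all 194 genes higher in the SCM left ventricle, against 35.7% of all genes (79.4% were called in either direction). The log2 ratio of the SCM means ran from 1.67 to 12.04 with a median of 5.82. Ranking the SCM libraries by the same rule gave a list that shared 180 of its first 200 genes with the control list. Of the 194 genes, 174 were among the first 200 of the SCM ranking, and 3 were under 10 CPM in the SCM left ventricle. The limit and the ranking used control values alone, which favours lower places in the SCM ranking.

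Together the 194 genes made up a large share of the left ventricle libraries and a small share of the brain libraries. They held 10.4% to 11.4% of all counts in control left ventricle libraries (11.1% ± 0.394, SD, n = 5) and 11.1% to 13.7% in the SCM left ventricle libraries (12.2% ± 0.973, SD, n = 5). The SCM range began inside the control range, and SCM left ventricle library 1 held the highest share. In the brain the share was 0.0979% to 0.107% in control rats and 0.101% to 0.114% in SCM rats. In bulk tissue, fewer cells of a type and less RNA per cell cannot be told apart, which holds for all levels given here.

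With rises over the share among other genes and falls near it, stress moderately changed some of the 194 genes in the left ventricle. The edgeR quasi-likelihood test with Benjamini-Hochberg adjustment over all genes called 23 of them (11.9%) at an adjusted p under 0.05, where 5.21% of all genes were called. Of the 23 genes, 15 rose (7.73%, against 2.33% of all genes) and 8 fell (4.12%, against 2.88%). Among the 7959 other genes with at least 10 CPM in the control left ventricle, 6.89% were called, 3.19% higher and 3.69% lower. No gene of the 194 passed the limits of the study, which add an absolute log2 fold change over 2, and 0.229% of all genes did. At an unadjusted p under 0.05 there were 66 genes, 39 higher and 27 lower, which is 34.0% against 23.2% of all genes. DESeq2 called 42 genes (21.6%), where it called 11.9% of all genes.

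The number of calls depended on single rats. Leaving out control rat 1 gave 12 calls (2.04% of all genes called in that fit), control rat 3 gave 14 (2.05%), SCM rat 1 gave 15 (2.88%), SCM rat 2 gave 13 (2.35%) and SCM rat 5 gave 13 (2.18%). Leaving out control rat 5 gave 34 (7.07%), so the share of all genes called moved with the same rats. Of the 23 genes, 12 were called whichever rat was left out, 8 of them higher in SCM, that is 52.2% against 31.8% of the 727 genes called in all. The control libraries that chose the genes were also the controls of this contrast. With the 194 genes chosen by the same rule from the SCM libraries instead, 22 were called (11.3%, against 5.21% of all genes), 19 higher and 3 lower. That choice in turn favours rises, since it takes genes that were high in the SCM left ventricles. Among the 174 genes in the first 200 of both rankings, 18 were called, 15 higher and 3 lower.

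The called changes were moderate in size. Their log2 fold changes ran from -1.38 to 1.73, and 10 of the 23 exceeded 1 in absolute value, 5 in each direction. The genes that rose had a median level of 233 normalized CPM over the 10 left ventricle libraries, with a range of 40.8 to 3925, and the genes that fell had a median of 43.4, with a range of 7.56 to 159. In 18 of the 23 the control and SCM libraries did not overlap, 12 higher and 6 lower, which a call itself favours. The same count among all called genes is not given here. Over all 194 genes the libraries did not overlap for 23, that is 11.9% against 7.6% of all genes.

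Positive log2 fold changes were more frequent at higher levels. Since every gene here had to reach 10 CPM in the control left ventricle, falls are favoured among the lowest levels, and places 138, 160 and 195 were under 10 CPM in the SCM left ventricle. Of the 65 genes with the highest levels, over 291 normalized CPM, 51 had a positive log2 fold change, 6 rose and 0 fell, and the median was 0.15. Of the 64 genes of middle level, 41 were positive, 6 rose and 3 fell. Of the 65 genes with the lowest levels, 25 were positive, 3 rose and 5 fell, and the median was -0.19. Other genes of the same 3 level ranges were positive in 77.2%, 66.2% and 48.0% of cases, also falling with level. From the highest range to the lowest, 7.72%, 6.09% and 2.15% of those genes were called higher and 0.702%, 3.10% and 4.01% lower.

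**Figure D2:**
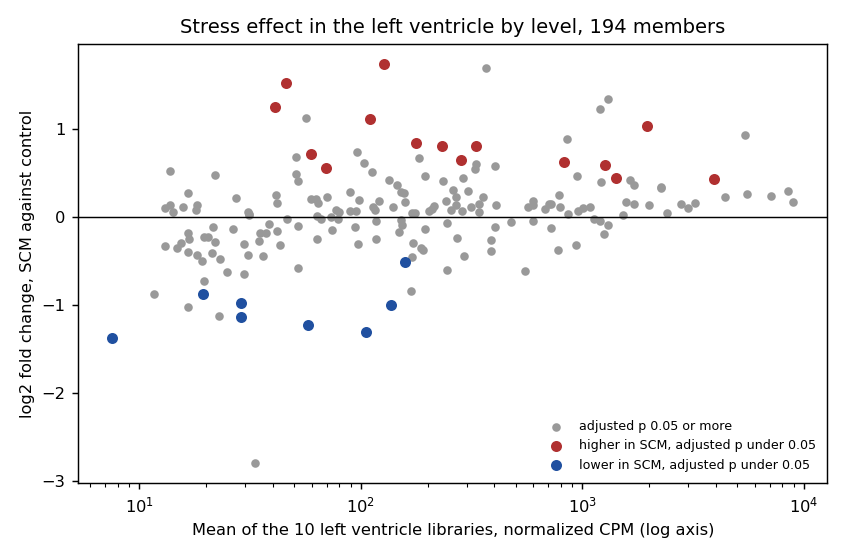
Log2 fold change of SCM against control in the left ventricle (vertical axis) against the mean of the 10 left ventricle libraries in normalized CPM (horizontal log axis), 1 point per gene; the 15 genes called higher are red and the 8 called lower are blue. The called lower genes lie at 7.56 to 159 normalized CPM, while the called higher genes reach 3925.

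The whole list moved little. The median log2 fold change was 0.079 over the 194 genes and -0.012 over all genes, and 117 of the 194 (60.3%) were positive against 48.4% of all genes. This sign depended on the scaling: with library totals and no TMM factors the median of the list was -0.041 and that of all genes -0.13, and 12 genes were called higher (6.19%, against 1.35% of all genes) and 13 lower (6.70%, against 5.8%). The TMM factors averaged 1.04 in the control and 0.961 in the SCM left ventricle libraries. The absolute log2 fold change had a median of 0.25 in the list and 0.16 among the other genes at 10 CPM or more.

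The genes with the most extreme tissue ratio were not called. The first 12 genes of the list, places 1 to 13, had 744 to 8778 CPM in the control left ventricle and 0.0771 to 2.63 CPM in the control brain. All 12 had a positive log2 fold change in the SCM left ventricle, from 0.10 to 1.33, and none passed, the lowest adjusted p of edgeR being 0.0912. Among other genes of the highest level range given before, 77.2% were positive, 7.72% were called higher and 0.702% lower. At those shares the absence of a call among 12 genes does not set them apart. With library totals and no TMM factors 9 of the 12 were positive, the lowest at -0.028. Place 1 measured 4344, 3235, 3981, 3323 and 5506 normalized CPM in the control left ventricles and 5643, 5100, 4317, 4388 and 4375 in the SCM left ventricles. The groups overlapped, and control library 5 was over every SCM library except library 1.

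The 8 genes of the list that were most abundant in the control left ventricle overlapped with these. They had 3176 to 8778 CPM, and 5 of them were among the first 12. All 8 had positive log2 fold changes of 0.15 to 0.92, and 1 of them was called, where 77.2% of other genes over 291 normalized CPM were positive and 7.72% were called higher. This was place 43, with 3332, 3715, 3686, 3112 and 2917 normalized CPM in the control and 4391, 4561, 4224, 4603 and 4707 in the SCM left ventricles. Every SCM library lay over every control library. Its log2 fold change was 0.42 ± 0.09 (SE), with an edgeR adjusted p of 0.0240, and the call was kept in 6 of 10 fits with a rat left out.

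The 2 called genes with the greatest rise were ENSRNOG00000007999 and ENSRNOG00000001399. ENSRNOG00000007999, place 67, measured 47.5, 109.8, 21.7, 81.8 and 34.4 normalized CPM in the control left ventricles and 230.3, 190.3, 85.8, 168.0 and 306.8 in the SCM left ventricles. SCM library 3 lay under control library 2, and the other SCM libraries lay over all controls. Its log2 fold change was 1.73 ± 0.42 (SE) with an edgeR adjusted p of 0.0380. The call was lost, at edgeR adjusted p-values of 0.0535 to 0.0914, without control rat 1, 3 or 5 and without SCM rat 1, 2, 4 or 5.

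ENSRNOG00000001399, place 116, measured 13.3, 28.9, 15.9, 39.0 and 22.2 normalized CPM in the control left ventricles and 59.3, 82.7, 48.7, 84.3 and 65.8 in the SCM left ventricles. The groups did not overlap. Its log2 fold change was 1.52 ± 0.27 (SE) with an edgeR adjusted p of 0.0107, and the call was kept whichever rat was left out.

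The 2 called genes with the greatest fall were ENSRNOG00000016136 and ENSRNOG00000019278. ENSRNOG00000016136, place 195, measured 12.2, 7.2, 13.0, 7.0 and 15.3 normalized CPM in the control left ventricles and 4.0, 3.2, 4.9, 4.9 and 3.9 in the SCM left ventricles. It was the scarcest of the called genes, and its groups did not overlap. It met the limit of 10 CPM only through the control libraries, so a fall was favoured by the choice of genes. Its log2 fold change was -1.38 ± 0.24 (SE) with an edgeR adjusted p of 0.00939.

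ENSRNOG00000019278, place 55, measured 163.4, 131.8, 166.9, 133.4 and 155.8 normalized CPM in the control left ventricles and 40.4, 62.7, 78.9, 64.1 and 55.8 in the SCM left ventricles. Every SCM library was under every control library by a clear gap. Its log2 fold change was -1.31 ± 0.15 (SE) with an edgeR adjusted p of 0.00253, and the call was kept whichever rat was left out. Its brain log2 fold change of 0.24 had an edgeR adjusted p of 0.830 and depended on single rats (-0.020 without SCM rat 2, 0.014 without control rat 4 and 0.46 without control rat 1), and the other 3 named genes had too few brain counts to be tested.

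**Figure D3:**
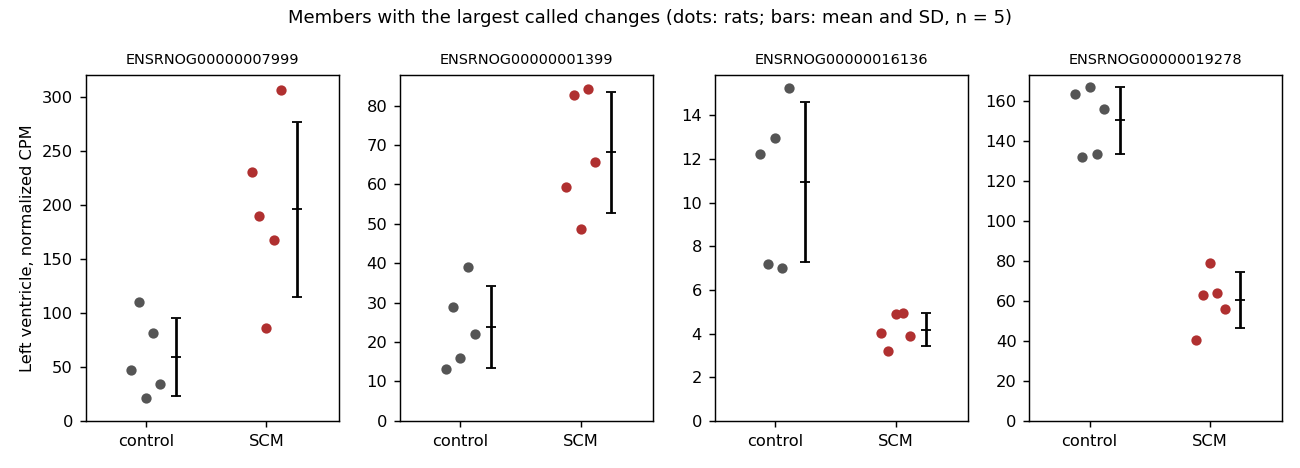
Left ventricle levels in normalized CPM of the 4 named genes, 1 dot per rat, 5 control rats in grey and 5 SCM rats in red, with the mean and SD of each group as a bar. The groups overlap for ENSRNOG00000007999 and are separate for the other 3.

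A larger fitted change than any of these was not called. Place 138 measured 51.2, 74.6, 133.8, 30.5 and 1.9 normalized CPM in the control left ventricles and 10.7, 5.0, 15.7, 2.5 and 8.1 in the SCM left ventricles. Control library 5 was under all SCM libraries, and the other control libraries were over them. The log2 fold change was -2.80 ± 0.78 (SE) with an edgeR adjusted p of 0.0604. This gene too met the limit of 10 CPM only through the control libraries, so a fall was favoured by the choice.

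Control left ventricle library 5 stood apart, in this list and over all counted features. Squared differences averaged 96.4 to 170.9 times the sampling variance in its pairs with other control left ventricles, and 29.4 to 77.8 among those others. For 10 of the 194 genes (5.15%) library 5 was the lowest of the 10 left ventricle libraries by at least 2-fold. It was so for 0.314% of the other genes at 10 CPM or more, both on CPM plus 0.5. It was the lowest at any margin for 58 genes, while in each other left ventricle library 0 or 1 gene was lowest by at least 2-fold. For place 95 it measured 1.52 normalized CPM where the next lowest library had 19.9, and for place 6 it measured 1203 where the next had 3704. None of these 10 genes was called. Without control rat 5 the calls rose from 23 to 34 (17.5%), 18 higher and 16 lower, and 21 of the 23 genes were kept. The share of all genes called rose as well, from 5.21% to 7.07%.

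The remaining control left ventricles also differed from each other. Over the 194 genes, deviations from the control mean on the log2 scale ran together in control libraries 2 and 4 (Pearson r = 0.67 across genes, against 0.27 over 7959 other genes) and in control libraries 1 and 3 (r = 0.42, against 0.10). The other 8 control pairs had r of -0.77 to -0.089, and taking deviations from a shared mean makes r negative by itself. Genes are not independent replicates, and the labels name no batch. The SD of log2 levels among rats had a median of 0.28 in control rats and 0.22 in SCM rats for the 194 genes, and of 0.18 and 0.16 for the other genes at 10 CPM or more.

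On the high side, SCM left ventricle library 1 was the highest by at least 2-fold for 3 genes (1.55%, against 0.352% of the other genes). For place 13 it measured 5095 normalized CPM, with 799 to 1440 in the other SCM left ventricles, and for place 66 it measured 1513, with 202 to 524 in the others. The part of these single libraries in the results was not tested beyond the fits without them, which gave 15 calls without SCM rat 1.

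**Figure D4:**
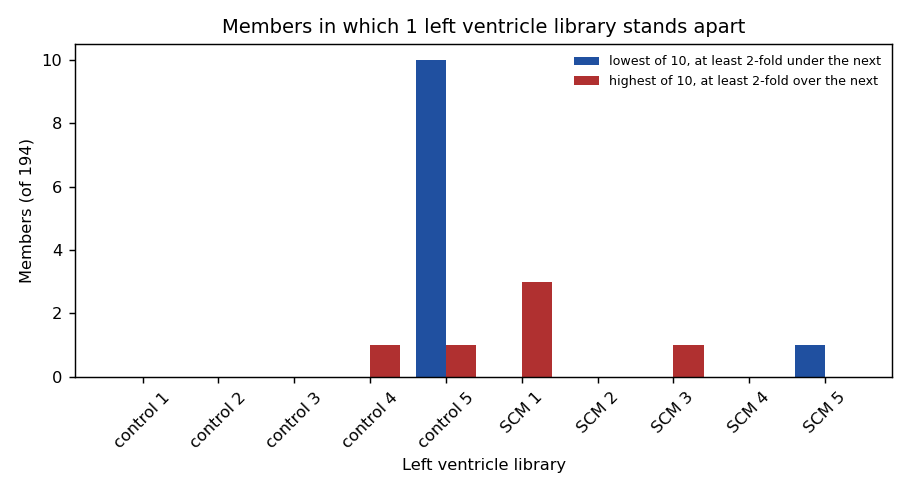
Number of the 194 genes for which 1 left ventricle library was the lowest (blue) or the highest (red) of the 10 by at least 2-fold from the next, on normalized CPM plus 0.5. Control library 5 is the lowest for 10 genes and SCM library 1 the highest for 3; the other bars stand at 0 or 1.

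In the brain, edgeR called none of the genes in the fit of the 10 brain libraries. Enough counts for the test were present for 124 genes, and the other 70 averaged 0 to 13.3 counts per brain library. None of the 124 was called by edgeR, where 0.175% of all genes were. At an unadjusted p under 0.05 there were 13 (10.5%, against 14.3% of all genes), all higher in SCM, where 6.9% of all genes were higher and 7.44% lower. The genes were chosen for low levels in these same control brains, which favours positive values. DESeq2 called 6 of 111 genes with an adjusted p (5.41%, against 2.62% of all genes), all higher, and limma-voom called 0. In a single edgeR fit of all 20 libraries 4 of 194 genes were called higher (2.06%, against 0.167% of all genes), without SCM rat 3 it was 3 of 128 (2.34%, against 0.692%), and without control rat 4 it was 1 of 127 (0.787%, against 0.105%). With the list chosen from the SCM libraries, edgeR called 0 of 127 and the unadjusted count was 10 higher and 3 lower. The median log2 fold change of the 124 genes was 0.082, against 0.0031 over all genes.

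In 2 of the 124 tested genes the brain groups did not overlap (1.61%, against 3.86% of all genes). Place 121 measured 3.65, 3.76, 2.33, 4.26 and 2.79 normalized CPM in the control brains and 11.7, 12.7, 5.78, 5.42 and 16.7 in the SCM brains. Place 135, better counted, measured 50.2, 52.4, 37.2, 75.2 and 46.7 in the control brains and 92.1, 115.0, 90.4, 77.8 and 81.1 in the SCM brains. Every SCM brain was over every control brain in both. The log2 fold changes were 1.64 ± 0.31 (SE) for place 121 and 0.80 ± 0.16 (SE) for place 135, with edgeR adjusted p-values of 0.0775 and 0.0890. In the left ventricle the same 2 genes had log2 fold changes of 0.04 and 0.34, with edgeR adjusted p-values of 0.912 and 0.177.

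The highest fitted value in the brain rested on 2 rats. Place 74 measured 0.0310 to 0.364 normalized CPM in the control brains and 0.449, 15.7, 0.0366, 36.8 and 0.776 in the SCM brains. SCM brains 2 and 4 were far over the rest, and SCM brain 3 lay among the controls. The log2 fold change was 5.66 ± 1.44 (SE) with an edgeR adjusted p of 0.142.

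As a sum, the first 12 genes of the list were higher in 1 brain library than in the other 9. Summed over these 12 genes, SCM brain library 2 held 33.6 normalized CPM and the other brain libraries 6.55 to 13.3, and SCM brain library 2 was the highest for 11 of the 12. Place 1 measured 2.23 normalized CPM in it and 0.0348 to 0.403 in the other brains, against 5100 in the left ventricle of that rat. Place 6 measured 4.61 in it and 0.488 to 1.73 in the other brains. Over all 194 genes its share of counts, 0.113%, was close to the 0.114% of SCM brain library 3. It was the highest of the 10 brain libraries by at least 2-fold for 4 of the 194 genes, where each other brain library was so for 0 or 1. The share among other genes is not given here, and SCM brain library 2 also stood apart over all counted features. Squared differences averaged 50.9 to 72.1 times the sampling variance in its pairs with other SCM brains, and 13.8 to 36.8 among those others. Without SCM brain library 2 edgeR called 0 of 125 genes and their median log2 fold change was 0.052. The share of all genes called in that fit is not given here, and it was 0.175% with all 10 brain libraries.

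The stress effects of the 2 tissues were set side by side. Of the 23 genes called in the left ventricle, 16 could be tested in the brain, where 8 had the same sign and 2 an unadjusted p under 0.05. Over all 708 genes called in the left ventricle and tested in the brain, 71.8% had the same sign and 25.6% an unadjusted p under 0.05. The listed genes were chosen for high levels in the control left ventricles and low levels in the control brains. Both contrasts used these same controls, so the choice favours opposite signs. The 8 of 16 therefore cannot be weighed against the 71.8%, and no difference in response is read from it. Of the 10 that rose in the left ventricle and were tested, 5 were positive in the brain, and of the 6 that fell, 3 were negative.

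Whether stress acted differently in the 2 tissues was examined with an interaction term, each rat forming a block. This term contains the control ratio of left ventricle to brain that chose the genes, so the choice favours negative values and the calls are given as a description. By edgeR this term was called for 4 of the 194 genes (2.06%), where 0.754% of all genes were called, 1 positive and 3 negative. For the list chosen from the SCM libraries there were also 4 calls, 2 positive and 2 negative, and the median log2 difference was 0.073, against -0.090 for the 194 genes and -0.055 over all genes. Places 19, 36 and 176 were on both lists and place 150 was not. Place 176 had the more positive effect in the left ventricle, with a log2 difference of 1.28 ± 0.25 (SE) and an edgeR adjusted p of 0.0440. It measured 254, 1134, 491, 1552 and 161 normalized CPM in the control left ventricles and 2299, 1548, 943, 1648 and 1917 in the SCM left ventricles. In the brains of the same rats it measured 12.5, 49.4, 21.4, 48.7 and 13.3 in control and 49.1, 39.7, 22.1, 23.4 and 26.6 in SCM. Control rats 2 and 4 were the 2 highest controls in both tissues, and SCM rat 1 was the highest SCM rat in both.

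The other 3 had the more negative effect in the left ventricle. Place 19 had a log2 difference of -2.38 ± 0.41 (SE, edgeR adjusted p 0.0256). It measured 463, 411, 439, 396 and 496 normalized CPM in the control left ventricles and 238, 411, 314, 355 and 364 in the SCM left ventricles. In the brain it was scarce, at 0.0364 to 0.186 in control and 0.250 to 0.684 in SCM rats. The left ventricle groups overlapped, by 1 SCM library, and the brain groups did not. The control brain values were close to the level of 3 counts.

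Place 150 had a log2 difference of -2.07 ± 0.43 (SE, edgeR adjusted p 0.0498) and place 36 of -1.02 ± 0.20 (SE, edgeR adjusted p 0.0475). In the left ventricle place 150 measured 19.5 to 31.9 normalized CPM in control and 8.78 to 19.4 in SCM rats, without overlap, and its brain levels reached at most 1.05. Place 36 measured 403 to 542 in control and 413 to 511 in SCM left ventricles, and 1.11 to 1.89 in control and 1.86 to 4.06 in SCM brains. Its left ventricle groups overlapped widely, while its brain groups overlapped by 1 control library. The 4 calls depended on single rats. Among the 10 fits with a rat left out, place 19 was called in 4, place 176 in 3, place 150 in 1 and place 36 in 0, and 6 of the 10 fits called 0 of the 194 genes (without control rat 1, 2 or 3 and without SCM rat 1, 2 or 5). Those 6 fits called 0.0593% to 0.219% of all genes.

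**Figure D5:**
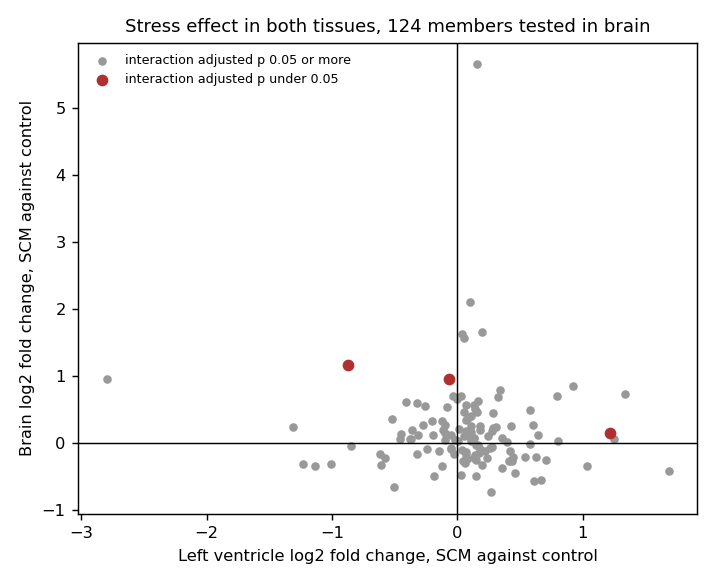
Log2 fold change of SCM against control in the brain (vertical axis) against that in the left ventricle (horizontal axis) for the 124 genes tested in both tissues, 1 point per gene; the 3 of them with a called interaction are red. Place 74 lies at the top, at 5.66 in the brain, and place 19, the other gene with a called interaction, is not shown because it was not tested in the brain.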

How the data were processed

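The authors deposited a table of unnormalized read counts, with genes in rows and the 20 libraries in columns. Libraries were made with the NEBNext Ultra kit, and the submitters' processing notes name HISAT2, StringTie, SAMtools and the genome build mRatBN7.2. The counting program, annotation and strand setting are not given in the sources used here, so overlapping and antisense genes could not be told apart. Groups and rats came from the sample titles, and both tissues of a rat carry the same name.

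Tests on the counts used edgeR 4.0.16 (R 4.3.3; filterByExpr with a minimum count of 10 and a minimum total of 15, TMM factors, quasi-likelihood test, Benjamini-Hochberg over all genes tested, calls at 0.05). SE was the absolute log2 fold change divided by the square root of F. Normalized CPM used library totals times TMM factors. The scripts were tested on simulated data with a common spread for all genes, which checks the code and not the calls given here. Replicate libraries differed by at least 11.6 times the sampling variance, more than counting the same library again would give. Separate preparations from the same rat would not be detected this way.

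Identifiers were printed for the 2 called genes that rose and the 2 that fell most in the left ventricle. Other genes were described from the first 12 of the ranking, the 8 highest in control left ventricle and interaction calls, and places 66, 74, 95, 121, 135 and 138 were chosen after their values were seen. The list and the tests were chosen with earlier results of these data known. Gene lists, cell type markers and promoter motifs could not be applied without symbols. Alternatives were RLE factors, DESeq2 1.42.0, limma 3.58.1 (voom), other filters, a replicate block, TMM factors without the listed genes, 1 fit of all libraries, leaving out each rat, other list sizes, a pseudocount of 0.1, the list from SCM libraries and, chosen after seeing the data, library totals without TMM, the 6 dropped genes kept and the interaction in the list from SCM libraries.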

Additional observations from a re-analysis of the deposited data

Results flagged for a closer look

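Control and SCM groups of 5 were examined for a library far from the other 4, in 62 groups of values, and 6 were found. Chance gives about 1 in 20, but some of these genes were chosen after their values were seen, so the count cannot be set against it. SCM left ventricle library 1 was high for place 6 (10998 normalized CPM, the others 5298 to 6715), place 13 (5095, the others 799 to 1440) and place 66 (1513, the others 202 to 524). Control left ventricle library 5 was high for place 74 (72.6, the others 55.4 to 60.4). In the brain, SCM library 2 was high for place 6 (4.61, the others 1.28 to 1.61) and control library 3 for place 36 (1.89, the others 1.11 to 1.29).

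The edgeR interaction of stress with tissue passed for 4 genes. It contains the control ratio of the tissues that chose the genes, and no gene passed in more than 4 of the 10 fits with a rat left out (place 36 in 0, place 150 in 1). The log2 differences were -2.38 for place 19, -1.02 for place 36, -2.07 for place 150 and 1.28 for place 176.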

How the results depend on the processing

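In the left ventricle, 11.9% of the 194 genes were called. DESeq2 called 21.6% (28 higher, 14 lower; 11.9% of all genes), adding a fold limit called 0%, and leaving out 1 rat gave 6.19% to 17.5%, the lower values without control rat 1 (6.19%), control rat 3 (7.22%), SCM rat 1 (7.73%), SCM rat 2 or SCM rat 5 (6.70% each). The other 18 alternatives were within 1.5 times the main share. The higher to lower split was 19 to 3 for the list from SCM libraries, 9 to 3 for the first 100 ranked, 23 to 29 for the first 400, 18 to 16 without control rat 5 and 12 to 13 with library totals, where the median log2 fold change became -0.041. The list from SCM libraries and those of other sizes hold other genes by construction, and the cause of the other shifts was not tested. In the brain, where edgeR called 0%, DESeq2 called 5.41% (2.62% of all genes), 1 fit of all libraries 2.06% and the first 400 ranked 0.315%; leaving out 1 rat gave 0% to 2.34%, with 3 calls without SCM rat 3 and 1 without control rat 4, and medians of 0.052 to 0.15. The interaction, called for 2.06%, was called for 3.09% without the rat block (0 higher, 6 lower; 1.70% of all genes), for 1.03% with RLE factors (0.652% of all genes), for 2.06% of the list from SCM libraries and for 0% to 1.55% when 1 rat was left out. The higher tissue level in SCM rats was called for all 194 genes in the 6 alternatives run.

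Same-numbered control and SCM rats were different animals, and their deviations over genes correlated at -0.08 to 0.15 in the left ventricle and -0.22 to 0.14 in the brain. With the number as a replicate block, 8.25% were called in the left ventricle (9 higher, 7 lower) and 0% in the brain. The share of all genes called in those fits is not given here, so these values have no background. Of the 194 genes, chosen for low brain levels, 70 did not pass the filter on brain counts. Without that filter 191 were tested and 0 called.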
